A study of Rattus norvegicus with 6 samples.

Results

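Collagen is made strong by enzymes that alter single amino acids, and 10 genes of this kind were followed in degenerating rat tail discs, of 30562 genes in the deposited table. They were chosen by name as 5 lysyl oxidases (Lox, Loxl1, Loxl2, Loxl3 and Loxl4), 3 lysyl hydroxylases (Plod1, Plod2 and Plod3) and 2 catalytic alpha subunits of prolyl 4-hydroxylase (P4ha1 and P4ha2). All 10 names were found once in the table, and 10 of 10 passed the filter on low counts. Prolyl 4-hydroxylase acts in the endoplasmic reticulum and gives the collagen triple helix its heat stability. Lysyl hydroxylases act there too, and the hydroxylysine they form decides which crosslinks can later arise. Lysyl oxidases are copper enzymes that work outside the cell, where they turn lysine and hydroxylysine side chains into aldehydes that join neighbouring collagen or elastin chains. In the disc these crosslinks hold the lamellae of the annulus fibrosus against tension.

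The discs came, by the paper's account, from male Sprague-Dawley rats aged 12 weeks whose tail disc had been punctured with a needle, and all 6 libraries share this injury. One group of 3 libraries received 10 μL of PBS into the disc. The other 3 libraries are labelled AF-PTK@LEV@SPP1, a liposome fused with vesicles of bacterial outer membrane that carries an siRNA against Spp1 (1 mg/kg) and, on a linker cut by reactive oxygen, a peptide binding the annulus fibrosus. Injections began 24 h after surgery, and treatment over 8 weeks is described. The sample records give the genotype as WT and differ in other respects, naming an untreated control, 14 days of treatment, mice, and macrophages sorted from digested discs. The most abundant genes were matrix genes and not macrophage genes, since Col1a1, Col1a2, Sparc and Col2a1 held 4.7%, 3.14%, 2.68% and 2.22% of the counts on average. The 8 macrophage markers summed to 1057, 658 and 656 normalized CPM (CPM, counts per library scaled for depth and composition) in PBS replicates 1, 2 and 3, against 385, 633 and 482 in the other 3 libraries, named libraries labelled as treated from here on, with 1 of the 8 called lower. Total counts were 17942989, 16565291 and 17489851 in PBS and 17074981, 15560728 and 17855184 in the libraries labelled as treated.

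Spp1, the target of the siRNA, stood at 8114, 4408 and 4414 CPM in PBS and at 8047, 6893 and 8451 in the libraries labelled as treated. It was thus not lower under that label (log2 fold change 0.31, adjusted p = 0.628 by edgeR's quasi-likelihood test), and the label is used below only as a label. The siRNA is described as directed at the mouse gene. PBS replicates 2 and 3 are described as separate rats, yet over 14393 genes their counts varied only 1.33 times as much as counting noise, and 16 genes (0.111%) differed. The other pairs within a group varied 51.3 to 107 times as much. The near-identical pair was therefore counted as 1 sample, which leaves n = 2 distinct PBS samples against n = 3.

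None of the 10 enzymes passed the test between the groups. After Benjamini-Hochberg adjustment of edgeR's quasi-likelihood test over 15537 genes, 0 of 10 had an adjusted p under 0.05, while 575 of all genes did (3.7%), 400 lower (2.57%) and 175 higher (1.13%) in the libraries labelled as treated. At an unadjusted p under 0.05, 1 of the 10 passed, against 25.4% of all genes. Requiring in addition an absolute log2 fold change above 1 left 0 of 10 enzymes and 452 genes (2.91%). With the 6 libraries kept as separate samples, 0 of 10 enzymes and 2727 of 15042 genes were called (18.1%). In that fit 4 enzymes and 5503 genes had an unadjusted p under 0.05. DESeq2 called 0 of 10 enzymes and 2572 of 15537 genes, with 2 enzymes and 4395 genes at an unadjusted p under 0.05. For limma-voom these were 0 of 10 enzymes and 454 genes called, with 1 enzyme and 3982 genes at that unadjusted level. Without the second and without the last of the libraries labelled as treated, 3109 and 2699 genes had an unadjusted p under 0.05 in edgeR. The count of all genes called was 0 in both of these fits. It was 113 without the first of these libraries and 280 without PBS replicate 1, and 0 of 10 enzymes were called in each case.

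The fitted changes were nevertheless mostly on one side. The log2 fold change was negative for 8 of the 10 enzymes and positive for Loxl3 and Plod1, with a median of -0.39, against a median of 0.05 and 45.8% negative over all genes tested. Among the negative values, those of Loxl2 (-0.07), P4ha1 (-0.07) and Loxl4 (-0.11) were small and turned sign in at least 1 alternative setting. The positive value of Plod1 (0.03) did so too. The 5 most negative values, from -0.77 to -0.66, belonged to P4ha2, Loxl1, Plod2, Lox and Plod3. Only Loxl1 had all libraries labelled as treated below both distinct PBS samples, as did 21.9% of all genes, and no enzyme had them all above, as did 23.9%. Two-sided exact permutation tests on log2 CPM gave p of 0.2 to 1 for the single enzymes, where 3 samples against 2 cannot go below 0.1. Because whole tissue was sequenced, fewer cells of a type and less RNA per cell cannot be told apart.

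**Figure D1:**
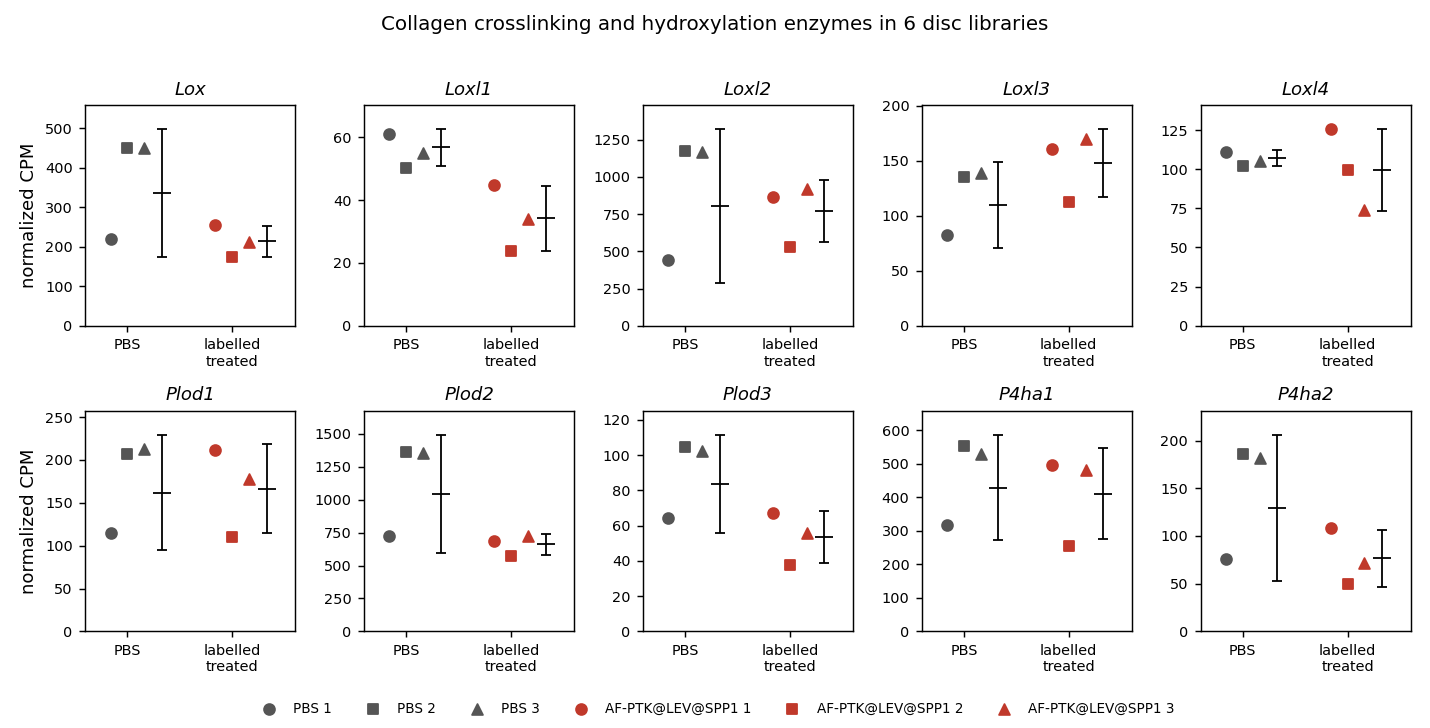
Normalized CPM of each enzyme in each of the 6 libraries, with PBS in grey and the libraries labelled as treated in red. Horizontal bars give the mean and vertical bars the SD over distinct samples (n = 2 and n = 3, with PBS 2 and PBS 3 averaged as 1), and only for Loxl1 are all 3 red points below all grey points.

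Lox, the founding lysyl oxidase, acts on both fibrillar collagen and elastin (ENSRNOG00000014426, chromosome 18, 45967343 to 46041477, minus strand, in the build of the deposited table, which the sources used here do not name for rat). It stood at 221, 449.9 and 451 CPM in PBS replicates 1, 2 and 3, and at 255, 175 and 211 CPM in the libraries labelled as treated. The near-identical PBS pair was high, and PBS replicate 1 lay among the libraries labelled as treated. The means were 336 ± 162 (SD, n = 2) and 214 ± 39.9 (SD, n = 3), the log2 fold change was -0.66 with an SE of 0.34 and a 95% interval of -1.53 to 0.21, and the adjusted p in edgeR was 0.29.

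Loxl1, which is required for the upkeep of elastic fibres, was the enzyme nearest to a call (ENSRNOG00000008680, chromosome 8, 58692593 to 58716356, minus strand). Its levels were 60.9, 50.3 and 54.9 CPM in PBS and 44.7, 23.8 and 34.0 CPM in the libraries labelled as treated. The groups did not overlap, and PBS replicate 1 was here the highest library. The log2 fold change was -0.74 with an SE of 0.27 and a 95% interval of -1.42 to -0.05, at an unadjusted p of 0.0390 and an adjusted p of 0.175 in edgeR. Over 13 alternative settings its adjusted p ran from 0.0801 to 0.369.

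Loxl2, Loxl3 and Loxl4 carry scavenger receptor domains that Lox and Loxl1 lack, and Loxl2 crosslinks collagen IV of basement membranes. Loxl2 (ENSRNOG00000016758, chromosome 15, 44683880 to 44773067, plus strand) stood at 439, 1171 and 1169 CPM in PBS and at 863, 529.9 and 917 CPM in the libraries labelled as treated. The widest gap lay inside the PBS group, where the pair was 2.67 times replicate 1, and all 3 of the other libraries fell between. Its log2 fold change of -0.07 had an SE of 0.48 and a 95% interval of -1.29 to 1.14. The values were thus compatible with changes in either direction within this interval, and the sign of Loxl2 turned in limma-voom (0.11). Loxl3, which is needed for the palate and spine to form (ENSRNOG00000061373, chromosome 4, 115540685 to 115557466, plus strand), had 82.4, 135 and 139 CPM in PBS and 161, 113 and 170.1 CPM in the libraries labelled as treated. Of these 3, the first and the last were above all PBS libraries and the other lay between them, and the log2 fold change was 0.42 with an SE of 0.29 (adjusted p = 0.414 in edgeR, and 0.09 as the log2 fold change without PBS replicate 1). Loxl4 (ENSRNOG00000015727, chromosome 1, 241397983 to 241416322, minus strand) had 111, 102 and 105 CPM in PBS against 126, 99.2 and 73.7 CPM. Its PBS libraries lay close together while the other group spread to both sides of them, with a log2 fold change of -0.11 and an SE of 0.24 (adjusted p = 0.792 in edgeR). Without the last of the libraries labelled as treated the sign of Loxl4 turned (0.07).

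**Figure D2:**
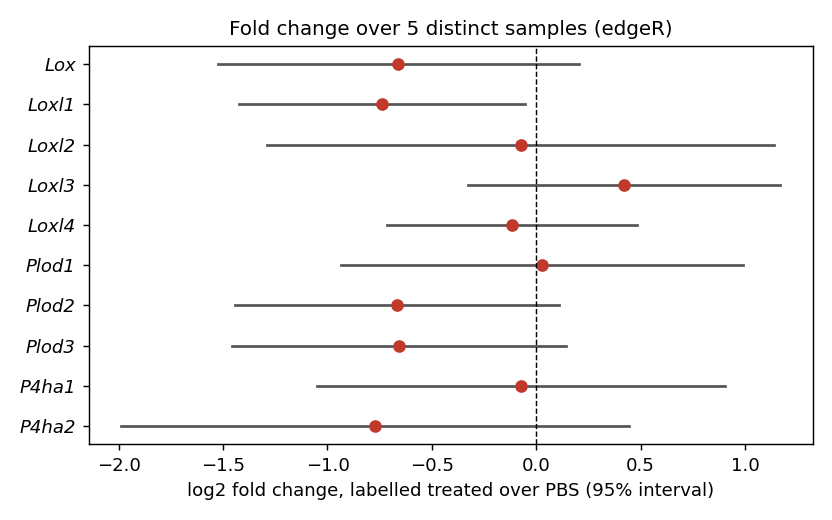
Log2 fold change of each enzyme, libraries labelled as treated over PBS, with its 95% interval from edgeR over 5 distinct samples. Negative values mean lower levels under that label, and the interval of Loxl1 alone ends below 0, at -0.05, before adjustment over all genes.

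Among the lysyl hydroxylases, Plod2 modifies lysines in the telopeptides, the short ends of collagen from which hydroxylysine-derived crosslinks start (ENSRNOG00000030183, chromosome 8, 93084513 to 93167255, plus strand). It stood at 727, 1366 and 1358 CPM in PBS and at 686, 572 and 728 CPM in the libraries labelled as treated. The PBS pair stood apart from 4 libraries of similar level, and the highest of the libraries labelled as treated exceeded PBS replicate 1 by about 1 CPM, so the groups just overlapped. The means were 1044 ± 449 (SD, n = 2) and 662 ± 80.5 (SD, n = 3), and the log2 fold change was -0.67 with an SE of 0.31 and a 95% interval of -1.44 to 0.11 (adjusted p = 0.247 in edgeR).

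Plod1, the main hydroxylase of lysines inside the helix, showed no such gap (ENSRNOG00000007763, chromosome 5, 158340490 to 158367620, minus strand). It had 114, 207 and 213 CPM in PBS and 212, 109.6 and 177 CPM in the libraries labelled as treated. Each group held a library at the low end and one at the high end of the same range, and the log2 fold change was 0.03 with an SE of 0.38 (adjusted p = 0.968 in edgeR). Its sign changed with several settings, among them the 6 libraries kept as separate samples (-0.10). Plod3, which can also attach sugars to hydroxylysine, had 64.1, 105 and 102 CPM in PBS and 67.1, 37.6 and 55.7 CPM in the libraries labelled as treated (ENSRNOG00000001417, chromosome 12, 19676386 to 19686960, minus strand). PBS replicate 1 again lay within the range of the other group, and the log2 fold change was -0.66 with an SE of 0.32 (adjusted p = 0.261 in edgeR). On the opposite strand, Plod3 overlaps Ap1s1 and Znhit1, Loxl3 overlaps Htra2, Lox overlaps Zfp475 and Loxl1 overlaps an unnamed gene. Whether the authors' counting used strand is not given in the sources used here, so reads from such partners cannot be told apart from those of the enzyme.

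P4ha1 and P4ha2 each pair with the beta subunit P4hb to form the prolyl 4-hydroxylase that acts on collagen. P4ha1 (ENSRNOG00000050655, chromosome 20, 27302141 to 27352786, plus strand) had 318, 552 and 529.7 CPM in PBS and 496, 254 and 483 CPM in the libraries labelled as treated. One library of each group was low and the others high, and the log2 fold change was -0.07 with an SE of 0.39 (adjusted p = 0.923 in edgeR, and 0.18 as the log2 fold change without the lowest of the libraries labelled as treated). P4ha2 (ENSRNOG00000033663, chromosome 10, 38243139 to 38287314, plus strand) had 75.5, 185 and 182 CPM in PBS and 108, 49.5 and 71.8 CPM in the libraries labelled as treated. The PBS pair was above all others, while PBS replicate 1 lay between the libraries of the other group. The means were 129.6 ± 76.5 (SD, n = 2) and 76.4 ± 29.6 (SD, n = 3), with a log2 fold change of -0.77, an SE of 0.48 and a 95% interval of -1.99 to 0.44 (adjusted p = 0.363 in edgeR). The lowest count of any enzyme in any library was 395, where counting error alone is 5.03%.

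The enzymes shared an order of libraries within each group. In 9 of 10, all but Loxl4, the second of the libraries labelled as treated was the lowest of its group, as in 34.9% of all genes tested. In 8 of 10, all but Loxl1 and Loxl4, PBS replicate 1 was below the mean of the PBS pair, as in 49.7% of all genes. Both held for 8 of 10 enzymes and for 22.9% of all genes. The size of the gap within PBS ranged from 0.86 times for Loxl1 to 2.67 times for Loxl2, as the pair over replicate 1. Both also held for 21 of 24 other genes of procollagen modification and folding, 17 of 19 hypoxia-inducible genes, 9 of 11 crosslinking partners, 9 of 14 collagens and elastin, 7 of 12 genes of TGF-β signalling and mechanical response, 6 of 13 genes of copper, ascorbate and iron supply and 2 of 6 genes of procollagen processing. These orders were picked out after the values were seen, and they are a description of the libraries.

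Markers of several cell types differed between the same libraries. The 7 markers of annulus and tendon fibroblasts, led by Col1a1, summed to 39450, 59470 and 59810 CPM in PBS and to 72740, 52590 and 61300 CPM in the libraries labelled as treated. The 8 chondrocyte markers, led by Col2a1, summed to 21150, 31070 and 30950 CPM in PBS against 37870, 27290 and 42480 CPM. Both lists hold genes of the disc's own cells, and both sums had PBS replicate 1 below the pair and the second of the other libraries lowest in its group. This order held for 7 of 7 single fibroblast markers but for only 4 of 8 chondrocyte markers, and Col9a1, Matn3, Cnmd and Col10a1 had PBS replicate 1 above the pair. The 6 erythroid markers, led by Hba-a1, summed to 2389, 3185 and 3275 CPM in PBS and to 2504, 20540 and 14080 CPM in the libraries labelled as treated. The 5 skeletal muscle markers, led by Acta1, gave 813, 1077 and 1092 CPM in PBS against 808, 8445 and 2124 CPM. The second of the libraries labelled as treated, the lowest for 9 enzymes, was thus the highest for blood and muscle markers. Neutrophil markers (6 genes, led by S100a9) summed to 1013, 179.7 and 169 CPM in PBS and to 245, 2314 and 3282 CPM, so that PBS replicate 1 stood above its pair. Of the 32 genes in these 5 marker lists, edgeR called 0 between the groups, against 3.7% of all genes. At an unadjusted p under 0.05, 3 of the 32 passed, against 25.4% of all genes. DESeq2 called 4 and limma-voom 0, against 2572 and 454 of all 15537 genes. With the 6 libraries kept as separate samples, edgeR called Matn3 lower (adjusted p = 0.0365). Of the 6 osteoclast markers, led by Ctsk, 4 were called lower, against 2.57% of all genes. Their sums were 6459, 4195 and 4213 CPM in PBS against 1117, 1092 and 766 CPM. The part of these cells in the levels of the enzymes was not tested.

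Ratios of counts within a library do not depend on its total, and each pair of enzymes inside a family was compared in this way after the levels had been seen. In 7 of 14 pairs the ratios of the 2 groups did not overlap over distinct samples, as in 45.4% of all pairs among 15226 genes with counts in every library, so the ratios below are a description. Plod2 counts were 6.36, 6.60 and 6.39 times Plod1 counts in PBS replicates 1, 2 and 3 and 3.24, 5.22 and 4.10 times in the libraries labelled as treated. All PBS libraries agreed closely here, PBS replicate 1 included, and the mean ratio was 0.65 times as large under the other label. The Plod3 to Plod1 ratio was 0.561, 0.506 and 0.481 in PBS and 0.317, 0.343 and 0.314 in the libraries labelled as treated, or 0.62 times as large. P4ha2 relative to P4ha1 gave 0.237, 0.336 and 0.343 in PBS and 0.218, 0.195 and 0.149 in the other group, again 0.65 times as large. Plod1 and P4ha1 had the log2 fold changes nearest to 0 in their families, while Plod3 relative to Plod2 overlapped between the groups (0.97 times).

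Inside the lysyl oxidase family, each ratio without overlap set a member with scavenger receptor domains over one without, and was higher under the label. This was seen afterwards and was not tested, and 45.4% of all gene pairs did not overlap either. Loxl3 counts were 0.373, 0.30 and 0.309 times Lox counts in PBS and 0.632, 0.644 and 0.804 times in the libraries labelled as treated. Loxl2 to Lox ratios were 1.99, 2.60 and 2.59 in PBS against 3.39, 3.03 and 4.34. Neither ratio overlapped between the groups, with means 2.05 and 1.56 times as large under the label AF-PTK@LEV@SPP1. Loxl3 and Loxl4 relative to Loxl1 did not overlap either (2.24 and 1.61 times). The other 6 pairs of lysyl oxidases overlapped, among them Loxl4 to Lox and Loxl2 to Loxl1. Exact permutation tests over the 14 pairs gave p of 0.1 at the lowest, the smallest that this design allows, and 0.28 after Benjamini-Hochberg adjustment, so no ratio passed. Levels of different enzymes were not ranked, because the table gives gene spans and no transcript lengths.

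The collagens that these enzymes act on did not move as one. Collagen I reads (Col1a1 and Col1a2) numbered 1003748, 1090358 and 1162324 in PBS and 1861850, 1291463 and 1611710 in the libraries labelled as treated. Collagen III reads (Col3a1) numbered 179811, 282126 and 299075 against 100884, 77943 and 117124. Collagen I was thus higher and collagen III lower in every library of that label than in any PBS library, although Col1a1 (adjusted p = 0.582), Col1a2 (0.328) and Col3a1 (0.144) were not called by edgeR. DESeq2 called Col1a2 higher and Col3a1 lower, and over 13 alternatives their adjusted p ran from 0.0173 to 0.574 and from 0.00443 to 0.30. Per 1000 collagen I reads, Lox counted 4.29, 6.42 and 6.36 in PBS and 2.33, 2.25 and 2.31 in the libraries labelled as treated. Plod2 counted 14.1, 19.5 and 19.1 in PBS against 6.28, 7.36 and 7.93 on the same scale. The groups did not overlap for either enzyme, each with a mean 0.43 times that of PBS, and the spread of Lox over the libraries labelled as treated was 0.0404 (SD, n = 3).

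Relative to collagen I, 8 of 10 enzymes were lower in every library labelled as treated than in either distinct PBS sample, all but Loxl2 and Loxl3, as were 50.7% of all genes tested. The ratio of means ran from 0.38 for Loxl1 to 0.90 for Loxl3, with P4ha2 at 0.39 and Plod3 at 0.42. Relative to collagen II (Col2a1), the same 8 enzymes were lower over distinct samples, as were 38.4% of all genes, although for Loxl4 PBS replicate 2 (4.82 per 1000) lay just below 2 libraries of the other group (4.84 and 4.88 per 1000). Relative to collagen III, itself lower under the label, 0 enzymes were lower (1.74% of all genes) and 8 of 10 were higher, all but Loxl1 and Loxl4, as were 75.1% of all genes. The largest ratio of means, 3.10, was that of Loxl3, at 8.93, 7.44 and 7.63 per 1000 collagen III reads in PBS and 27.2, 24.02 and 25.5 in the libraries labelled as treated. Over the 30 ratios to collagen, the smallest exact permutation p was 0.1 and the smallest adjusted value 0.167. These ratios were chosen after the values were seen.

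**Figure D3:**
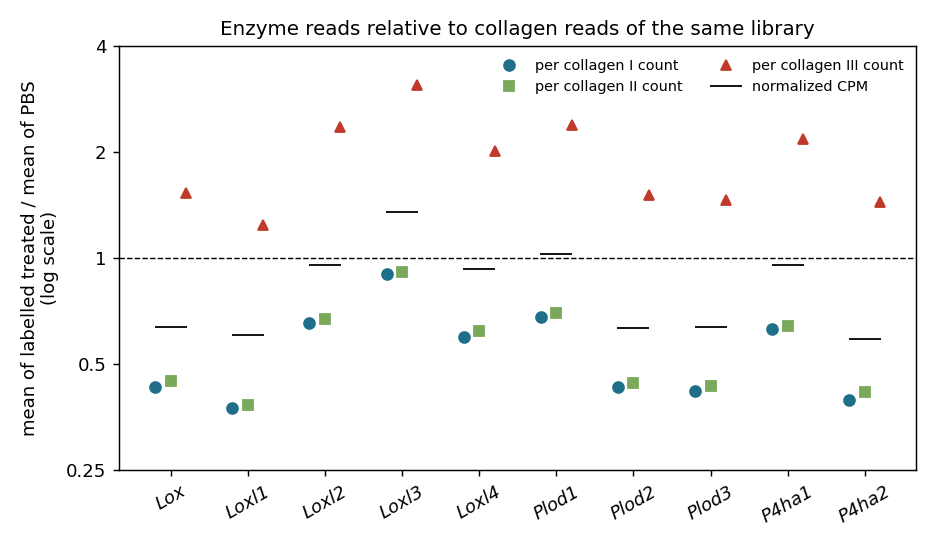
Mean of the libraries labelled as treated divided by the mean of the distinct PBS samples for each enzyme, on a log scale. Points give counts relative to collagen I, II or III counts of the same library and black bars give normalized CPM, and the points for collagen III lie above 1 for all 10 enzymes while those for collagen I and II lie below 1.

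A further list held other genes that modify and fold procollagen in the endoplasmic reticulum. Of 24 tested, edgeR called 0, against 3.7% of all genes, and the median log2 fold change was -0.25. At an unadjusted p under 0.05, 7 of the 24 passed, against 25.4% of all genes. DESeq2 called 3 of the 24 and limma-voom 0, against 2572 and 454 of all 15537 genes. P4hb, the beta subunit and the most abundant by its mean over the 6 libraries, though below Serpinh1 in each PBS library, had 1076, 1382 and 1383 CPM in PBS and 1045, 718 and 855 CPM in the libraries labelled as treated. Those libraries were all below PBS, with a log2 fold change of -0.50 and an SE of 0.24 (adjusted p = 0.257 in edgeR). P4ha3, a further alpha subunit singled out after its values were seen, had 43.3, 100.4 and 107 CPM in PBS and 17.4, 11.2 and 19.4 CPM in the other group. Its groups did not overlap, and with a log2 fold change of -2.21 and an SE of 0.43 it just missed the threshold (adjusted p = 0.0604 in edgeR, 0.0137 with the 6 libraries kept, and 5.76e-05 to 0.186 over 13 alternatives). Keeping the 6 libraries also called the collagen chaperone Serpinh1 lower (adjusted p = 0.0452) and the galactosyltransferase Colgalt2 higher (adjusted p = 0.0088). Over 13 alternatives their adjusted p ran from 0.0301 to 0.333 and from 0.000401 to 0.186. In edgeR, Colgalt2 had an adjusted p of 0.0559 in the main fit, and of 0.0480 with the 6 libraries kept and a replicate block. Of 6 genes that process procollagen outside the cell, edgeR called 0, and the median log2 fold change was -0.28. At an unadjusted p under 0.05, 2 of the 6 passed, against 25.4% of all genes. DESeq2 called 1 and limma-voom 0, against 2572 and 454 of all 15537 genes. Pcolce, the most abundant of the 6, stood at 305, 359.9 and 376 CPM in PBS. In the other group it had 369.9, 276 and 351 CPM, with overlap. Adamts14, a procollagen N-proteinase, was called lower with the 6 libraries kept (adjusted p = 0.0220, and 0.00415 to 0.245 over 13 alternatives).

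Calls were found among the proteins that the crosslinking enzymes work on or with. Of 14 collagens and elastin, 2 were called lower and 0 higher, against 2.57% and 1.13% of all genes. The median log2 fold change was -0.80, against 0.05 over all genes. Col5a3, a minor fibrillar collagen chain, had 251, 501 and 519 CPM in PBS and 86.6, 87.5 and 86.8 CPM in the libraries labelled as treated. Col4a1 of the basement membrane had 1024, 1492 and 1515 CPM in PBS and 490.4, 531 and 537 CPM in the other group. Both were lower in all 3 libraries, with log2 fold changes of -2.14 (SE 0.31, adjusted p = 0.0371) and -1.29 (SE 0.22, adjusted p = 0.0475) in edgeR. Col1a1, the most abundant gene of the list, had 31890, 44700 and 45020 CPM in PBS and 64020, 45890 and 51200 CPM in the libraries labelled as treated, where the lowest of the latter was only just above the highest of the former. With the 6 libraries kept, 6 of the 14 were called lower and 0 higher, against 1494 and 1233 of all 15042 genes.

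Of 11 partners of crosslinking on fibrils and elastic fibres, 3 were called lower and 0 higher, against 2.57% and 1.13% of all genes. The median log2 fold change was -0.90. Periostin (Postn), which binds collagen and Bmp1 and promotes activation of Lox, had 5371, 8918 and 8973 CPM in PBS and 205, 149 and 322 CPM in the libraries labelled as treated. Lumican (Lum), which coats collagen fibrils, had 2472, 5917 and 5949 CPM in PBS and 324, 444 and 436 CPM in the other group. Emilin1 of elastic fibres had 218, 335 and 336 CPM in PBS against 125, 96.5 and 108 CPM. The groups were separate for all 3, with log2 fold changes of -5.00 (SE 0.47, adjusted p = 0.0196), -3.40 (SE 0.43, adjusted p = 0.0303) and -1.34 (SE 0.23, adjusted p = 0.0483) in edgeR. Fibronectin (Fn1), the most abundant of the list and a further binding partner of Lox, had 11959, 27239.8 and 26967 CPM in PBS and 6862, 4847 and 6434 CPM in the libraries labelled as treated. Its groups did not overlap, and its log2 fold change of -1.70 (SE 0.46) had an adjusted p of 0.107 in edgeR and of 0.0277 with the 6 libraries kept (0.000415 to 0.277 over 13 alternatives).

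Lysyl oxidases need copper and the hydroxylases need iron, ascorbate and 2-oxoglutarate. Of 13 genes tested that supply these, 3 were called lower and 0 higher, against 2.57% and 1.13% of all genes. The median log2 fold change was -0.27. Slc31a1, the main copper importer of the cell surface, had 95.6, 111 and 113 CPM in PBS and 57.9, 61.8 and 65.1 CPM in the libraries labelled as treated. By its mean over the 6 libraries, the metal importer Slc39a14 was the most abundant of the list, though below Glud1 in each library labelled as treated. Slc39a14 had 369.9, 489.8 and 491 CPM in PBS against 155, 92.2 and 108 CPM. The iron importer Slc11a2 had 75.3, 83.1 and 88.1 CPM against 32.2, 31.9 and 37.7 CPM. In each of these 3 the groups were separate, with log2 fold changes of -0.76 (SE 0.12, adjusted p = 0.0427), -1.87 (SE 0.27, adjusted p = 0.0377) and -1.25 (SE 0.13, adjusted p = 0.0221) in edgeR. Osteoclast markers, given above, were lower in the same libraries, and their part in these values was not tested. Atp7a, which loads copper onto lysyl oxidases in the secretory pathway, stood at 25.6, 27.1 and 25.3 CPM in PBS and at 20.6, 19.5 and 20.6 CPM in the other group. The groups did not overlap, and the log2 fold change of -0.37 (SE 0.11) had an adjusted p of 0.119 in edgeR and of 0.0326 with the 6 libraries kept (0.0326 to 0.283 over 13 alternatives). Atp7b, a related copper ATPase, had the largest change of the list and in the other direction, with 1.33, 0.643 and 0.915 CPM in PBS and 4.23, 10.2 and 5.98 CPM in the libraries labelled as treated. Its groups did not overlap, and with a log2 fold change of 2.69 (SE 0.52) it just missed the threshold (adjusted p = 0.0600 in edgeR, 0.0121 with the 6 libraries kept, and 4.97e-05 to 0.186 over 13 alternatives). With the 6 libraries kept, 5 of the 13 were called lower and 1 higher, against 1494 and 1233 of all 15042 genes. Without the second or without the third of the libraries labelled as treated, 0 of these calls remained in any list, and without the first only that of Slc39a14. Leaving out PBS replicate 1 ended the calls of Slc31a1, Slc39a14 and Tgfbr1 (a receptor described next), and limma-voom did not call Slc31a1, Col4a1 or Emilin1. With the 6 libraries kept and a replicate block added, edgeR did not call Emilin1 (adjusted p = 0.0620, and 0.00914 without the block).

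Several of the enzymes are textbook targets of hypoxia-inducible factor, among them P4ha1, P4ha2, Plod2 and Lox. Of 19 other hypoxia-inducible genes edgeR called 0, against 3.7% of all genes, and the median log2 fold change was 0.08. At an unadjusted p under 0.05, 1 of the 19 passed, against 25.4% of all genes. DESeq2 called 1 and limma-voom 0, against 2572 and 454 of all 15537 genes. Ldha was the most abundant of the 19 by its mean over the 6 libraries. It had 694, 910.1 and 881 CPM in PBS and 717, 509 and 567 CPM in the libraries labelled as treated, with overlap. Keeping the 6 libraries called 1 of the 19, Mxi1, higher (adjusted p = 0.0263, and 0.0171 to 0.263 over 13 alternatives). Of 12 genes listed under TGF-β signalling and mechanical response, 1 was called lower and 0 higher, against 2.57% and 1.13% of all genes. The median log2 fold change was -0.45. The chaperone Fkbp10 of this list is also in that of procollagen modification and folding and is counted in both. The receptor Tgfbr1 had 304, 269 and 276 CPM in PBS and 149.9, 128 and 152 CPM in the other group. It was below all PBS libraries in all 3, with a log2 fold change of -1.02 (SE 0.14, adjusted p = 0.0341 in edgeR). With the 6 libraries kept, 6 of the 12 were called lower and 0 higher, against 1494 and 1233 of all 15042 genes. Ccn2, the most abundant of the list, overlapped between the groups, with 838, 1549 and 1544 CPM in PBS and 1136, 1020.03 and 1368 CPM in the other libraries.

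Promoters are shown because several of the enzymes are textbook targets of hypoxia-inducible factor, which binds a short core, written ACGTG or GCGTG. The library order that 8 enzymes shared was also that of most genes in several other lists and is not particular to hypoxia-inducible genes. Of the 10 enzymes, 8 matched the RefSeq promoter table of build GRCr8, and Lox and Loxl2 did not. In the 250 bases before the start, searched on both strands with overlapping matches joined, 6 of 8 held at least 1 core, as did 36.7% of 33469 promoters of that length. P4ha2 held 5, Plod2 4, P4ha1 2 and Loxl3, Plod1 and Plod3 1 each, while Loxl1 and Loxl4 held none in this window. At least 3 were present in 4.3% of all promoters. The sequences of the enzymes with more than 1 are given 5′ to 3′ on the plus strand, in lower case with the core in capitals (CACGT and CACGC where it lies on the other strand), for Plod2 at chr8:101964068-101964317, P4ha2 at chr10:38743644-38743893 and P4ha1 at chr20:27844796-27845045 of GRCr8. A match describes the letters of the window and not a bound site.
Plod2: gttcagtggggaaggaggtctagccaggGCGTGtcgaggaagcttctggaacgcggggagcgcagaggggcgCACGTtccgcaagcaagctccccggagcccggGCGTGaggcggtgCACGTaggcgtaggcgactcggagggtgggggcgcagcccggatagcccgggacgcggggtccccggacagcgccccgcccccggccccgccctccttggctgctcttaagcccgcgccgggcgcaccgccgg
P4ha2: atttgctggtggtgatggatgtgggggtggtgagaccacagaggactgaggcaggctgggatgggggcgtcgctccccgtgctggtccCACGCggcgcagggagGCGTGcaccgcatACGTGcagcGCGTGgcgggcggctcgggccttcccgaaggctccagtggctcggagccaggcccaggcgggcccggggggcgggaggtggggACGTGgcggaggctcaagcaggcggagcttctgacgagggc
P4ha1: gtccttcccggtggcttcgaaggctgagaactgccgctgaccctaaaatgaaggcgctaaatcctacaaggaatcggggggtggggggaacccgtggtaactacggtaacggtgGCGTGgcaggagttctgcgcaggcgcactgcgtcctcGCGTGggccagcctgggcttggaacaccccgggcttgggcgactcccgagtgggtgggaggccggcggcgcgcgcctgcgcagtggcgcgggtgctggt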

How the data were processed

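RNA of 6 libraries from rat discs was analysed. The authors deposited counts, whole numbers of reads per Ensembl rat gene, without normalization. The submitters' processing notes name FastQC, Trimmomatic, HISAT2, featureCounts and DESeq2, without versions, and the mouse build mm10, which the rat identifiers contradict. The rat build and the use of strand and shared reads are not given in the sources used here. The AFPTK columns were matched to samples by the treatment and number in their names. The IVD columns name no treatment. They were taken as PBS, with their number, because the paper calls the PBS discs the IVDD group. Counts were fitted across all genes in R 4.3.3 with edgeR 4.0.16 (trimmed mean of M-values, filterByExpr with a minimum count of 10, quasi-likelihood test, Benjamini-Hochberg adjustment), with PBS replicates 2 and 3 summed. A gene was called at an adjusted p under 0.05. SE are those implied by the F statistic. Exact tests used log2 CPM with a prior count of 2. DESeq2 1.42.0, limma-voom (limma 3.58.1), other scalings, no filter, 6 libraries kept with or without a replicate block, and each library left out were alternatives. The enzymes and gene lists were chosen with earlier results of these data known. All enzymes are named; from each pathway list every called gene and the most abundant one (highest mean CPM over the 6 libraries) are named, and other genes were picked after their values were seen. Promoter sequences are those of RefSeq on build GRCr8. Transcript lengths and proteins were not used here, so the most abundant gene of a list is that by CPM, without correction for length. One further list of cell markers is not reported here.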

Additional observations from a re-analysis of the deposited data

How the results depend on the processing

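The count of 0 enzymes called held under all 13 alternatives, with either rule, and 120 of 130 enzyme values kept their sign. The sign turned for Loxl2 in limma-voom (0.11) and for Plod1 with the 6 libraries kept (-0.10) and with no filter on low counts (-0.021). Leaving out 1 library each gave log2 fold changes of -0.62 to 0.14 for Loxl2, -0.35 to 0.066 for Loxl4, -0.35 to 0.26 for Plod1 and -0.41 to 0.18 for P4ha1. They were 0.09 to 0.59 for Loxl3, -1.09 to -0.53 for Lox, -1.01 to -0.53 for Loxl1, -1.06 to -0.57 for Plod2, -0.97 to -0.45 for Plod3 and -1.28 to -0.53 for P4ha2, and of these 6 all but Loxl1 had the lowest value without PBS replicate 1. All of these values had adjusted p above the threshold in every setting, and the cause was not tested.

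Genes called overall numbered 2727 with the 6 libraries kept and 2572 in DESeq2, against 575, and 0 to 566 with 1 library left out. With the fold rule these were 1328, 1411 and 0 to 449, against 452. Other genes of the pathway lists numbered 28, 29 and 0 to 9, against 9. Without PBS replicate 1 the near-identical pair is a lone sample, assumed to vary like the other group.

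Libraries with the same replicate number did not deviate together (correlations of -0.326, -0.282 and -0.0756), and no library correlated best with its own number, so the replicate block served only as 1 of the 13 alternatives. It was fitted with the 6 libraries kept as separate samples, so it differed from the main fit in that choice too. It called 741 genes and 0 enzymes, against 2727 genes with the 6 libraries kept and no block. The Plod1 log2 fold change was -0.10 in both of these fits. In edgeR, Emilin1 was not called with the block (adjusted p = 0.0620) but was without it (0.00914). Colgalt2 (0.0480) and Tgfb1 (0.0463), not called in the main fit, were called with the block.

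Only 2 distinct PBS samples were compared with 3, and the part of depth or sample number in the missing calls was not tested.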

Other observations

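Further cell markers differed between libraries without forming part of a comparison above. The 6 markers of nucleus pulposus and notochord, led by Cd24, summed to 754, 323 and 316 CPM in PBS and to 4215, 1500 and 1782 CPM in the libraries labelled as treated, with Noto at 0 in all 6. Adipocyte markers (5 genes, led by Fabp4) gave 382, 64.2 and 68.3 CPM against 951, 1547 and 676 CPM. Both sums were higher in every library labelled AF-PTK@LEV@SPP1 than in any PBS library. Even so, edgeR called 0 of the 10 genes tested, against 3.7% of all genes. At an unadjusted p under 0.05, 8 of the 10 passed, against 25.4% of all genes. DESeq2 called 8 and limma-voom 0, against 2572 and 454 of all 15537 genes. With the 6 libraries kept, edgeR called Krt18, Cd24 and Lep higher (adjusted p = 0.0205, 0.0196 and 0.04025). With a replicate block added to that fit, it called Krt8, Krt18, Cd24 and Tbxt higher (adjusted p = 0.0286, 0.0318, 0.0406 and 0.0435). Osteoblast and osteocyte markers (8 genes, led by Ibsp) summed to 4758, 1811 and 1805 CPM in PBS against 2307, 3271 and 1901 CPM. Myofibroblast and mural markers (5 genes, led by Acta2) gave 757, 916 and 938 CPM against 1606, 678 and 765 CPM, and endothelial markers (6 genes, led by Pecam1) gave 498, 601 and 584 CPM against 375, 437 and 434 CPM. Of these last 3 lists, only the endothelial sums did not overlap between the groups.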
